A study of Mus musculus with 2 samples.

Results

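Guanylin (Guca2a), uroguanylin (Guca2b), their receptor guanylate cyclase C (Gucy2c) and the cGMP-dependent protein kinase II (Prkg2) were described on oligonucleotide arrays of small intestine and colon. The genes were taken by name, with no threshold on a measured value, and the 4 members stood among 18194 genes named on the arrays. Together they were read by 6 probe sets, sets of short oligonucleotides that each report a transcript, of which Prkg2 had 3 and the others 1 each. The series held 1 Affymetrix Mouse 430 2.0 array of a small intestine biopsy and 1 of a colon biopsy, both from wild-type adult mice and with no treatment named. How many animals gave the RNA and which segment of small intestine was sampled are not given in the labels. As each tissue was measured once, the differences have no replicate to be checked against, and neither a test nor a p-value is given. All levels are log2 expression values, in which a step of 1 is a factor of 2, and a difference is small intestine minus colon.

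Guanylin and uroguanylin are small peptides that epithelial cells of the gut release into the lumen. They bind the extracellular part of Gucy2c in the apical membrane, whose intracellular part then makes cGMP, and bacterial heat-stable enterotoxins cause diarrhoea by using the same receptor. The cGMP activates Prkg2 at the apical membrane, which phosphorylates the chloride channel Cftr, and the pathway also lowers sodium uptake through the sodium-proton exchanger Slc9a3, so that salt and water move towards the lumen.

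The genes of the 2 ligands lie side by side on mouse chromosome 4, with no other gene of the RefSeq table of assembly GRCm38.p6 between them. The 250 bases before the RefSeq start of each ligand gene are shown because the neighbouring genes had opposite directions between the tissues. They are written 5′ to 3′ on the strand of the gene, from RefSeq. The stretch of Guca2a is chr4:119637482-119637731 on the plus strand and that of Guca2b is chr4:119658946-119659195 on the minus strand. Capitals mark matches on either strand to AGATAA, a motif of GATA factors, or TTTATG, a motif of CDX factors, which were chosen after the sequences were seen and did not overlap here.

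Guca2a: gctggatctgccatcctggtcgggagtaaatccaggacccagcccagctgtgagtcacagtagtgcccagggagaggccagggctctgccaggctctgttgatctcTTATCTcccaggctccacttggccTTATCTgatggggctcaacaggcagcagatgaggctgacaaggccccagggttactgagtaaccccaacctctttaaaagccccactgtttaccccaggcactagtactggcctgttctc

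Guca2b: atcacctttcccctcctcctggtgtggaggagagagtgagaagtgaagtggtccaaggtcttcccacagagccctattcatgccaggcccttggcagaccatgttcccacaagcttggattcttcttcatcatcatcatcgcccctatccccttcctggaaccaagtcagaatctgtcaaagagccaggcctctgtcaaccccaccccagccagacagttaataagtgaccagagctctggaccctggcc

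The Guca2a stretch held 2 matches to the GATA motif, both on the other strand, from 144 to 139 and from 120 to 115 bases before the start, and the Guca2b stretch held none. Neither held the CDX motif. Among 32851 such stretches of the table, 9.99% held the GATA motif and 10.8% the CDX motif, and a match is only a run of letters.

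The ligands differed in opposite directions, whereas the receptor and the kinase differed little. Guca2b had 12.23 in small intestine and 6.41 in colon, a difference of 5.83, which is 56.7-fold higher in small intestine. Guca2a had 11.65 in small intestine and 13.59 in colon, a difference of -1.94, which is 3.83-fold higher in colon. A level of 5 was taken as background, since 78 probe sets of olfactory and vomeronasal receptors, genes of sensory neurons of the nose, reached at most 4.78. Both ligands lay above it on both arrays, so their folds are measured values and not lower bounds.

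Gucy2c, the receptor of both peptides, had 10.35 in small intestine and 9.96 in colon, a difference of 0.40 or 1.32-fold. The 3 probe sets of Prkg2 gave 3 differences. The brightest had 11.48 in small intestine and 10.81 in colon, a difference of 0.67 or 1.59-fold. The second had 9.50 on both arrays, with a difference of -0.0030. The dimmest had 7.38 in small intestine and 6.92 in colon, a difference of 0.47. No probe set of the receptor or the kinase reached 3-fold, and all lay above background on both arrays.

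**Figure D1:**
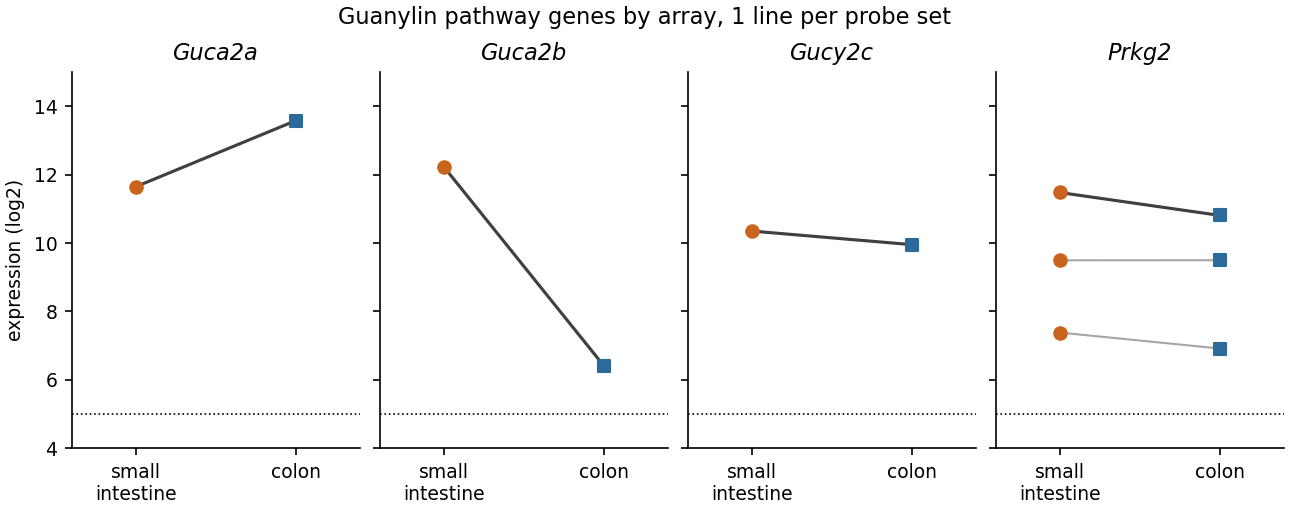
Log2 expression (vertical axis) of the 4 genes as circles for the array of small intestine and squares for that of colon, with 1 line per probe set, darker for the brightest, and the background level of 5 dotted. Guca2b sits at 12.23 in small intestine and 6.41 in colon, Guca2a at 11.65 in small intestine and 13.59 in colon, and the lines of Gucy2c and Prkg2 are nearly flat.

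These differences can be set beside those of the arrays as a whole. Of 11016 genes above background on either array, 5.71% were at least 3-fold higher in small intestine and 5.49% in colon. Of the 4 members, 1 was past that fold in each direction. Among the 11016 genes, 44 had a difference further towards small intestine than Guca2b, and 401 had one further towards colon than Guca2a. A difference larger in size than that of Gucy2c was found for 60.3% of the genes and one larger than that of Prkg2 for 40.5%. Probe sets of a gene, where 2 or more lay above background on both arrays, had a pooled SD of 0.54 in their differences, over 3535 genes. The difference of Gucy2c was smaller than this SD and that of Prkg2, by its brightest probe set, was slightly larger. Those of Guca2a and Guca2b lay further above it, but each rests on a single probe set. Spike-in controls added for the hybridization differed by a median of 0.02 over 18 probe sets, with a range from -1.52 to 0.33.

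**Figure D2:**
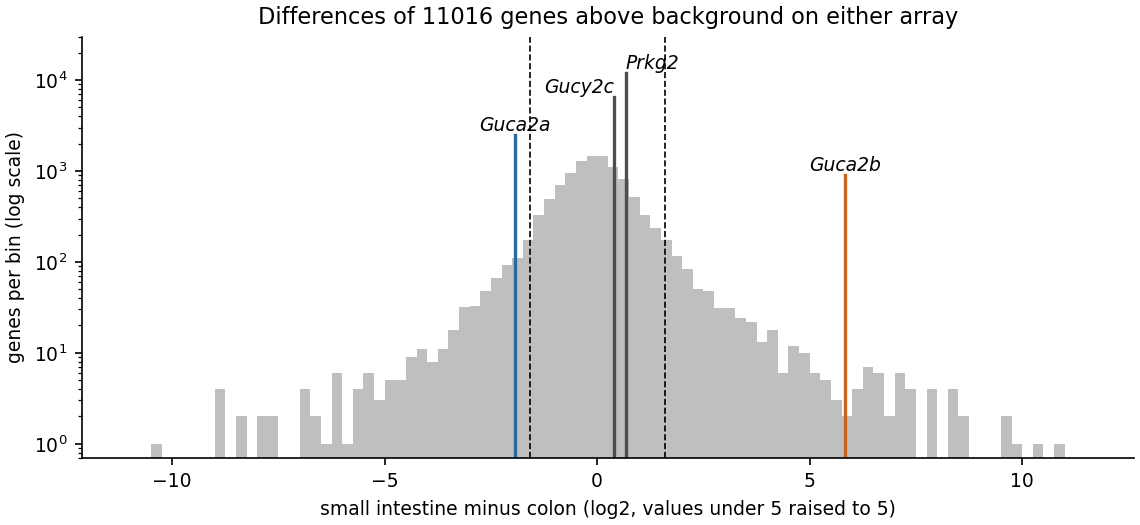
Number of genes per bin (vertical log axis) by the difference of small intestine minus colon (horizontal axis, log2, values under 5 raised to 5), for 11016 genes above background on either array. Dashed lines mark 3-fold, and upright lines the members by their brightest probe set. Guca2b at 5.83 stands in the right tail, Guca2a at -1.94 just past the left dashed line, and Gucy2c and Prkg2 in the middle.

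The genes on either side of the ligand pair differed by 0.28 and -0.50. Foxj3, a forkhead transcription factor next to Guca2a, had 10.27 in small intestine and 9.99 in colon by its brightest of 3 probe sets. Hivep3, a zinc finger protein and the next gene on the array beyond Guca2b, had 5.45 in small intestine and 5.95 in colon by its brightest of 5 probe sets. These values lie close to background, so the difference of Hivep3 says little. The other sets of Foxj3 lay at background on both arrays, and those of Hivep3 lay at or near it.

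Genes were also ranked by how near their difference lay to that of a member, among 9813 others above background on both arrays. As 2 arrays give 1 difference per gene, this measure says little for any member, and least for those near 0. Nearest to Guca2b were Mogat2, an acyltransferase of fat absorption, with a difference of 5.79, Slc7a9, a subunit of an amino acid transporter, with 5.59, and Cyp4v3, a cytochrome P450, with 5.57. Nearest to Guca2a were Prss32, a serine protease gene, with -1.93, Nr3c2, the mineralocorticoid receptor, with -1.93, and Cntrl, a centriole protein gene, with -1.95. For Gucy2c these were Mrps5, Trappc2l and Gnai2, all with 0.40, and for Prkg2 Rce1, Mrpl13 and Leng9, all with 0.67.

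Other genes of the pathway were taken from 6 lists by role. The lists were chosen with earlier results of these data known, so counts over them are descriptive only. Of 64 listed genes 58 were measured, and 35 of these lay above background on either array. Over all genes this was 11016 of 18194. Past 3-fold, 5 of the 35 (14.3%) were higher in small intestine and 4 (11.4%) in colon, against 5.71% in small intestine and 5.49% in colon for all genes. The median difference of the 35 was -0.07, against -0.06 for all 11016 genes. The calls lay among the scaffolds, the ion transporters, 1 phosphodiesterase and 1 transcription factor.

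PDZ scaffolds hold transporters and their regulators below the apical membrane. Their list, which also held apical regulators that are not PDZ scaffolds, had 3 of 6 members higher in small intestine and none in colon. The shares over all genes were 5.71% in small intestine and 5.49% in colon, and the list median was 1.81. Pdzk1 had 12.07 in small intestine and 3.49 in colon, at least 135-fold higher, where the value in colon lay at background and the fold is a lower bound. Nherf1, which links Cftr and Slc9a3 to the cytoskeleton through ezrin, had 13.53 in small intestine and 11.10 in colon (5.38-fold), and its 3 probe sets lay between 5.26-fold and 6.31-fold. Nherf4, a scaffold reported to bind the tail of Gucy2c and lower its activity, had 9.49 in small intestine and 7.12 in colon (5.17-fold). The other members of this list differed by less than 3-fold, with 12.97 in small intestine and 11.71 in colon for ezrin (Ezr). Nherf2, the scaffold that ties Prkg2 to Slc9a3, had 7.40 in small intestine and 7.25 in colon. Ahcyl1, which acts on Cftr and Slc9a3, had 11.05 in small intestine and 10.78 in colon.

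The epithelial ion transporters had 1 of 11 members higher in small intestine and 3 in colon, against 5.71% of all genes in small intestine and 5.49% in colon. The anion exchanger Slc26a6 had 11.51 in small intestine and 2.06 in colon, at least 91.4-fold higher. Its relative Slc26a3, which exchanges chloride for bicarbonate, had 12.21 in small intestine and 13.85 in colon (3.12-fold), and its other 3 probe sets had unfloored differences from -2.97 to -2.56. Kcne3, the subunit that keeps open the basolateral potassium channel Kcnq1, had 10.63 in small intestine and 12.86 in colon (4.68-fold). The calcium-activated chloride channel Ano1 had 6.06 in small intestine and 10.49 in colon (21.5-fold), or 4.64-fold by its second probe set. Ano1 also marks pacemaker cells of the muscle wall. Smooth muscle and exocrine pancreas markers were higher in colon, as given below. Their part in the values of Ano1, Cftr and the other transporters was not tested.

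Cftr, the channel that Prkg2 phosphorylates, had 10.25 in small intestine and 11.69 in colon, which is 2.71-fold, and its second probe set lay at background on both arrays. The basolateral chloride loader Slc12a2 had 12.10 in small intestine and 13.35 in colon (2.37-fold) by its brightest probe set, and its other 2 were 3.44-fold and 3.45-fold higher in colon. Slc9a3, named here after its value was seen, had 10.15 in small intestine and 10.28 in colon, a difference of -0.13. Its relative Slc9a2 had 9.52 in small intestine and 9.99 in colon, and Kcnq1 had 8.12 in small intestine and 8.70 in colon.

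Enzymes that break down cGMP and pumps that export it had 1 of 15 members past 3-fold, higher in colon, with 8 above background. Of all genes above background on either array, 5.49% were past 3-fold in colon and 5.71% in small intestine. Pde2a, a phosphodiesterase that cGMP itself stimulates, had 7.71 in small intestine and 10.91 in colon (9.21-fold). Of its other probe sets one was at least 6.10-fold higher in colon and one differed by 0.01, and the brightest carries the mark _s, given to probe sets that can match other transcripts. Pde5a, a phosphodiesterase specific for cGMP, had probe sets that disagreed. The brightest, marked _x for probes that may cross-hybridize, had 10.82 in small intestine and 11.24 in colon. The other 2 ran the other way, with 9.40 in small intestine and 8.05 in colon for one (2.55-fold) and 8.34 in small intestine and 5.89 in colon for the other (5.46-fold), so that no direction can be given for Pde5a. The exporter Abcc4 had 6.10 in small intestine and 7.10 in colon. Abcc5 had 7.52 in small intestine and 6.38 in colon, and its 10 probe sets ran in both directions. Pde1b had 4.87 in small intestine and 5.54 in colon.

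Other sources and targets of cGMP were mostly at background. Among all 18194 genes, 11016 lay above background on either array. Of 14 measured guanylyl cyclases, natriuretic peptides, their receptors and nitric oxide synthases, 11 lay at or below background on both arrays, among them the natriuretic peptide receptors Npr1 (2.41 in small intestine and 2.45 in colon) and Npr2 (4.24 in small intestine and 4.23 in colon). These receptors and Gucy1a2 were named after their values were seen. Of the subunits of the nitric oxide receptor, Gucy1a1 had 7.81 in small intestine and 8.69 in colon and Gucy1b1 had 8.16 in small intestine and 7.83 in colon, while Gucy1a2 lay below background on both arrays. The neuronal synthase Nos1 had 5.61 in small intestine and 5.67 in colon. Of 8 other cGMP targets, 5 lay at background on both arrays, all of them subunits of cyclic nucleotide-gated channels. The kinase Prkg1, the smooth muscle relative of Prkg2, had 5.27 in small intestine and 6.13 in colon. Its substrates Vasp (9.59 in small intestine and 9.21 in colon) and Irag1 (8.14 in small intestine and 8.50 in colon) differed by 0.38 and -0.36. No gene of these lists reached 3-fold, against 5.71% of all genes above background in small intestine and 5.49% in colon. So few genes of these lists lay above background that this absence says little.

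Of 4 measured transcription factors of the gut epithelium, Hnf4g was at least 13.4-fold higher in small intestine, with 8.74 there and 4.82 in colon. By the brightest probe set it was the only 1 of the 4 past 3-fold, against 5.71% of all genes in small intestine and 5.49% in colon. Cdx2, which binds the Gucy2c promoter in human cells, had 7.82 in small intestine and 7.43 in colon, and its relative Cdx1 had 8.93 in small intestine and 9.82 in colon. Hnf4a had 12.22 in small intestine and 12.33 in colon by its brightest probe set. A second set was 3.60-fold higher in small intestine and another 1.65-fold higher in colon, so its probe sets disagreed in direction.

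**Figure D3:**
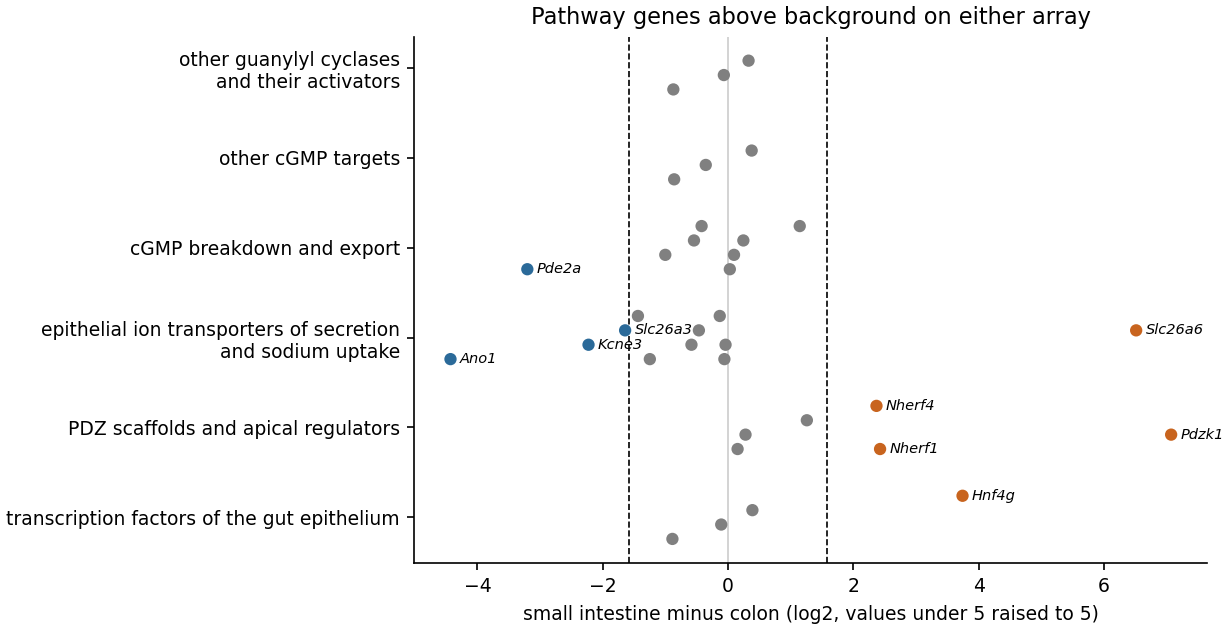
Each point is 1 pathway gene above background on either array, by list (vertical axis) and by its difference of small intestine minus colon (horizontal axis, log2, values under 5 raised to 5). Dashed lines mark 3-fold, and genes past it are named and coloured. Nherf1, Nherf4 and Pdzk1 lie to the right at 2.43, 2.37 and 7.07, while 3 ion transporters and Pde2a lie to the left.

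Cell type markers moved with the tissues too, and in bulk samples fewer cells of a type and less RNA per cell cannot be told apart. Markers of the labelled tissues were present. For the counts that follow, the shares past 3-fold over all 11016 genes were 5.71% in small intestine and 5.49% in colon. Of 5 enterocyte markers, 4 were at least 3-fold higher in small intestine, where the summed signal of the list was 16.59 on the log2 scale, against 14.27 in colon, and Lct, Apoa4 and Anpep lay at background in colon. Nearly all of the sum in colon came from Fabp2, the marker under 3-fold, which had 15.42 in small intestine and 14.26 in colon. All 4 colonocyte markers, Slc26a3 among them, were higher in colon, with sums of 12.63 in small intestine and 16.10 in colon, and Car1 and Aqp8 lay at background in small intestine. Guca2b ran in the same direction as the enterocyte list and Guca2a in that of the colonocyte list. By list median, Paneth cell (4.53) and pan-epithelial markers (0.22) also lay towards small intestine. Goblet cell (-1.96), enteroendocrine (-0.81), smooth muscle (-1.82) and exocrine pancreas markers (-7.77) lay towards colon, as Guca2a did.

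Guanylin and uroguanylin have both been described in several epithelial cell types, goblet and enteroendocrine cells among them. The counts past 3-fold below stand against 5.71% of all genes in small intestine and 5.49% in colon. Of 7 goblet cell markers, 4 were higher in colon and none in small intestine. The mucin Muc2 was among the 4, with 12.19 in small intestine and 14.94 in colon. Tff3, Fcgbp and Zg16 did not reach 3-fold, with differences of 0.50, -0.22 and -0.23. The sums of the list were 16.59 in small intestine and 17.38 in colon. Of 6 enteroendocrine markers, Tph1 (9.58-fold) and Chgb (4.73-fold) were higher in colon, with sums of 11.77 in small intestine and 13.88 in colon, most of it from Chgb with 11.50 in small intestine and 13.74 in colon. The other 4 did not reach 3-fold, with differences from -1.05 to 0.02. Of 9 pan-epithelial markers 1 passed 3-fold, villin (Vil1), 3.02-fold towards small intestine, with sums of 16.93 in small intestine and 16.59 in colon. Of 4 Paneth cell markers, 3 were higher in small intestine, with sums of 17.13 in small intestine and 15.23 in colon. Of 5 smooth muscle markers, 3 were higher in colon, with sums of 12.82 in small intestine and 14.19 in colon. All 6 exocrine pancreas markers were higher in colon, with sums of 6.31 in small intestine, where each lay at background, and 15.63 in colon. The part of these lists in the differences of the members was not tested.

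**Figure D4:**
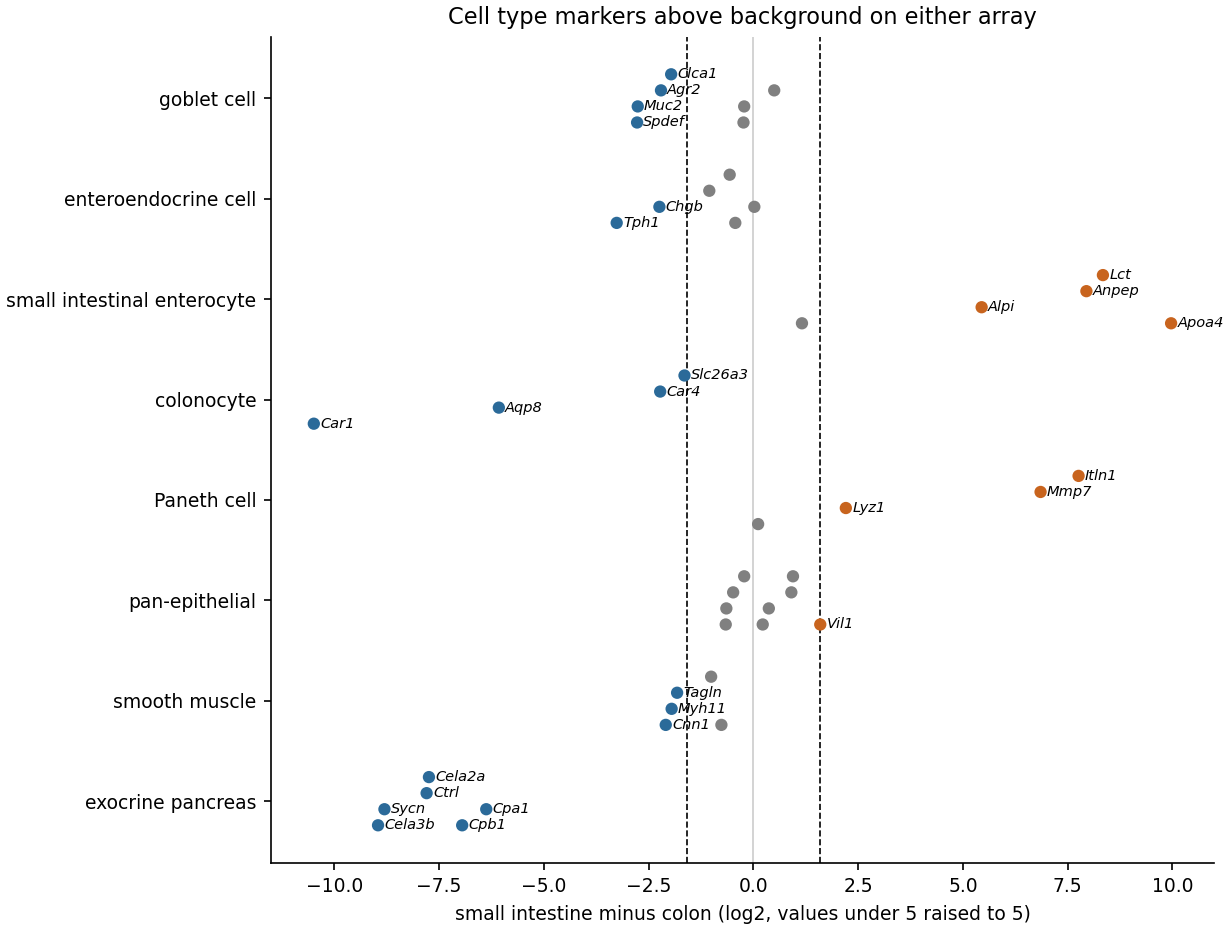
Each point is 1 marker gene above background on either array, by cell type list (vertical axis) and by its difference of small intestine minus colon (horizontal axis, log2, values under 5 raised to 5), with 3-fold dashed and genes past it named. The enterocyte markers reach 9.97 for Apoa4 on the right, and 4 of the 7 goblet cell markers and all 6 exocrine pancreas markers lie past the left dashed line.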

How the data were processed

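Total RNA of a small intestine and a colon biopsy was extracted, and each was put on 1 Affymetrix Mouse 430 2.0 array after biotin labelling. The values deposited by the authors are log2 expression values per probe set. The submitters' processing notes name GCRMA, while RMA is named in the study's methods, which place their arrays in another series. Versions, and which arrays were normalized together, are not given in the sources used here. GCRMA can widen a fold between a bright and a dim value. No scaling was added to the 45101 probe sets, whose values ran from 0.73 to 16.97 with array medians of 3.99 for small intestine and 4.01 for colon.

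Probe sets were named through the platform annotation. Of these, 34958 had 1 gene, and 34754 of them matched RefSeq (GRCm38.p6) by Entrez identifier. A gene was read by its brightest probe set, by the mean over the 2 arrays. Values under the background level of 5 were raised to 5 for differences, and a gene was counted as higher at 3-fold, a fold taken from the study. Old symbols on the arrays were Slc9a3r1 (Nherf1), Slc9a3r2 (Nherf2), Pdzd3 (Nherf4) and Mrvi1 (Irag1). Summed signals are log2 of the sum of linear values over a list. Named pathway genes are, per list, all past 3-fold and up to 4 others above background with the largest differences, beside the nearest genes of each member, and those outside this rule are marked in the text. The members, lists and rules were chosen with earlier results of these data known. Apart from the choice of the brightest set and these sums, levels of different probe sets were not set against each other, and no promoter of Gucy2c or Prkg2 was used here. Precision is limited by the number of arrays. Alternatives were background levels of 4 and 6, no floor, folds of 2 and 5, quantile normalization, centring on the median or on spike-ins, the median over probe sets, and the brightest set without those marked _x, _s or _a. Python 3.11.15, numpy 2.4.6, pandas 2.3.3 and matplotlib 3.10.9 were used.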

Additional observations from a re-analysis of the deposited data

How the results depend on the processing

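The differences of Guca2a, Guca2b and Gucy2c kept their direction and moved by less than the SD of 0.54 between probe sets under all 8 alternatives of scaling, floor and probe set choice. They ran from -1.95 to -1.90 for Guca2a, from 5.81 to 5.87 for Guca2b and from 0.38 to 0.45 for Gucy2c. Of the 8 alternatives, only the 3 changes of scaling could move them, since each has a single probe set and every value lies above 6. That of Prkg2 became -0.0030 with the median over its 3 probe sets, taken on each array, and otherwise ran from 0.65 to 0.71.

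A fold of 2 gave 1265 genes higher in small intestine and 1481 in colon, and a fold of 5 gave 309 in small intestine and 260 in colon, in place of 629 in small intestine and 605 in colon at a fold of 3. Guca2a passes a fold of 2 but not of 5. Pathway genes higher in colon numbered 7 at a fold of 2 and 2 at a fold of 5, in place of 4. Their number in small intestine was between 5 and 7 under all 10 alternatives. With the median over probe sets Slc12a2 (-1.78) also passed 3-fold in colon, and without sets marked _x, _s or _a Hnf4a (1.85) did in small intestine, while Kcne3 and Pdzk1 had no set. No paired analysis was possible because each tissue had 1 array, and no array could be left out for the same reason. Differences between probe sets do not replace the spread between animals, which these arrays cannot give.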
